A study of Mus musculus with 12 samples.

Results

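The genes described here are 7 receptors or receptor-like proteins for chemokines and related chemoattractants on myeloid cells, *Ccr1*, *Ccr2*, *Ccr3*, *Ccrl2*, *Cxcr2*, *Cxcr3* and *Cxcr4*. They were found by gene symbol among the 55401 gene identifiers counted in each library, and each of the 7 had 1 row. Their RNA was followed in microglia of 4 groups, to ask whether loss of HDAC3, tFCI or both changed the receptors through which such cells sense chemokines.

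Microglia were sorted from mouse brain as CD45int CD11b+ cells, and 12 libraries were sequenced in 4 groups of 3 (WT-Sham, WT-tFCI, miKO-Sham and miKO-tFCI). WT mice were Cx3cr1 wt/wt:Hdac3 loxp/loxp and carried no CreER. miKO mice were Cx3cr1 CreER/wt:Hdac3 loxp/loxp, so that in addition to the deletion they had 1 intact *Cx3cr1* allele where WT mice had 2. All mice were male, and the study's methods give tamoxifen on 5 consecutive days at 6 to 8 weeks of age, with surgery at least a month later. Transient focal cerebral ischemia (tFCI) was a 60 min occlusion of the left middle cerebral artery, Sham mice had the surgery without occlusion, and cells were taken on day 3 after tFCI. Each library pooled cells of 3 to 4 hemispheres, and by the labels batch 1 holds the replicates numbered 1 and batch 2 those numbered 2 and 3. CreER was driven by *Cx3cr1*, which blood monocytes also use, and the wait before surgery was meant to let unrecombined progenitors replace them.

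Chemokines are small secreted proteins that bind receptors with several membrane helices and steer leukocytes along their gradients. The receptors signal through inhibitory G proteins, phosphoinositide 3-kinase, phospholipase C and Rac, and are silenced by receptor kinases and arrestins. In the brain, monocytes that follow CCL2 use CCR2, neutrophils use CXCR2, and CCR1 serves macrophage-like cells, whereas CCRL2 binds chemerin and is thought to present it without signalling itself.

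In the GENCODE M21 annotation of GRCm38, *Ccr1* (ENSMUSG00000025804.5, 123962124 to 123968692), *Ccr3* (ENSMUSG00000035448.9, 124021972 to 124031689) and *Ccr2* (ENSMUSG00000049103.14, 124101950 to 124113557) lie in a receptor cluster on chromosome 9. *Ccrl2* (ENSMUSG00000043953.12, 111054486 to 111057519) lies further up the same chromosome. *Cxcr2* (ENSMUSG00000026180.8, 74153989 to 74161246) and *Cxcr4* (ENSMUSG00000045382.6, 128588199 to 128592293) are on chromosome 1, and *Cxcr3* (ENSMUSG00000050232.6, 101731535 to 101734269) is on chromosome X. All 7 are protein-coding genes, and none overlaps another counted gene. Of all 75-base stretches in the transcripts of *Cxcr2*, 1.81% also occur in transcripts of other genes, and *Ccr1*, *Ccr3*, *Ccrl2*, *Cxcr3* and *Cxcr4* shared no such stretch.

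The 250 bases upstream of the RefSeq start (GRCm38.p6) are shown for the 3 members called in miKO-tFCI vs. WT-tFCI whose window holds at most 5 bases of an annotated exon, read 5′ to 3′ on the strand of the gene. They are chr9:123968693-123968942 (minus strand) for *Ccr1*, chr9:111057519-111057768 (minus strand, the most upstream of 3 starts) for *Ccrl2*, and chr1:74153744-74153993 (plus strand) for *Cxcr2*. Capitals mark the match to a motif.
Ccr1: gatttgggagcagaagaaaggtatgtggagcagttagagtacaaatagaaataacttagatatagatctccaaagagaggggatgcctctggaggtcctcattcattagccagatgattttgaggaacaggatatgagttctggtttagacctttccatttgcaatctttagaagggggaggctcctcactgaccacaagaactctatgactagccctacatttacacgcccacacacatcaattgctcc
Ccrl2: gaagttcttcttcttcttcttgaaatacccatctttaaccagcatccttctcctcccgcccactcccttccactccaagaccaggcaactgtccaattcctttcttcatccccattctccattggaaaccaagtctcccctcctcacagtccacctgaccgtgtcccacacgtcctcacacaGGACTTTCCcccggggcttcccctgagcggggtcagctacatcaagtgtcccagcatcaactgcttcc
Cxcr2: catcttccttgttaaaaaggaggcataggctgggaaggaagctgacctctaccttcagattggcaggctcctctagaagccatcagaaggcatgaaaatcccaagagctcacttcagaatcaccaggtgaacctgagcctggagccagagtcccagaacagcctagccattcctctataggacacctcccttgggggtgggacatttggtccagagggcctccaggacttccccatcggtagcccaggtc
On both strands, 6 motifs were searched, chosen after the sequences were seen. In the same 250-base window of 32817 RefSeq promoters, a PU.1-type ETS motif (GAGGAAGT) was present in 2.44%, NF-kB (GGANTTTCC) in 1.07%, C/EBP (TTGCNNAA) in 9.57%, AP-1 (TGANTCA) in 6.75%, an IRF-type motif (GAAA, 2 free bases and GAAA again) in 2.97% and a CRE core (TGACGT) in 6.46%. *Ccrl2* held 1 match, to the NF-kB letters, whose first base lay 68 bases before the start, and *Ccr1* and *Cxcr2* held none of the 6. *Ccr3* matched NF-kB and AP-1 once each, *Cxcr3* matched the ETS letters once, and *Ccr2* and *Cxcr4* matched none. No 2 matches overlapped.

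Libraries held 7697864 to 9452222 counts on genes. The 11 microglia markers examined were detected in every library, with a summed level of 10716 to 35440 CPM (counts scaled to library size, with TMM factors). *Hdac3*, the targeted gene, was lower in every miKO library than in every WT library of the same surgery (log2 fold change -0.81 in Sham and -0.71 in tFCI). Several libraries stood apart. WT-tFCI 1 and miKO-tFCI 1, both of batch 1, had more RNA of monocytes and dendritic cells than the other libraries of their groups, at 23.0 and 68.0 CPM of *Ly6c2* (a marker of classical monocytes) against 1.10 to 1.96 CPM and 11.2 to 11.4 CPM. Summed markers of endothelial cells, astrocytes, oligodendrocytes and T and NK cells were also highest there, and those of microglia lowest. In miKO-tFCI 1, astrocyte markers summed to 505 CPM against 189 and 214, and microglia markers to 10716 CPM against 17013 and 20250. The sum for border-associated macrophages was lowest in both libraries, and those for neutrophils and neurons were not highest in both. WT-Sham 1 had 272 CPM of the neutrophil gene *S100a8* against 13.9 and 21.5 CPM, and miKO-Sham 3 had 85.2 CPM of the macrophage gene *F13a1* against 9.30 and 11.7 CPM. Between miKO-Sham 1 and 2 the chi-square of the counts per degree of freedom was 2.82, the lowest of any replicate pair (3.65 to 76.6 in the others), which is above sampling noise. The labels place them in different batches, and they were kept as 2 libraries, but whether they came from separate pools of cells could not be told from the counts, and if not, miKO-Sham holds 2 independent replicates.

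Per length, *Ccrl2* was the most abundant member in each group and *Ccr1* the next. In WT-Sham, *Ccrl2* stood at 94.6 ± 5.18 FPKM (SD, n = 3) and *Ccr1* at 6.53 ± 1.06 FPKM. The remaining 5 had means of 0.0975 to 1.11 FPKM in the order *Cxcr3*, *Ccr2*, *Ccr3*, *Cxcr4* and *Cxcr2*, in which the ranges of every pair of neighbours overlapped. In miKO-Sham the order was *Ccrl2* (101 ± 4.35), *Ccr1* (5.04 ± 3.70), *Ccr2*, *Cxcr3*, *Cxcr4*, *Ccr3* and *Cxcr2*, and the ranges of *Ccr2* with *Cxcr3*, *Cxcr4* with *Ccr3* and *Ccr3* with *Cxcr2* overlapped. In WT-tFCI it was *Ccrl2* (195 ± 39.9), *Ccr1* (11.7 ± 0.849), *Cxcr4* (2.61 ± 1.49), *Ccr2*, *Cxcr2*, *Cxcr3* and *Ccr3*, with overlap between *Cxcr4* and *Ccr2* and among the last 3.

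In miKO-tFCI the top of the order was narrower. *Ccrl2* was at 66.8 ± 7.67 FPKM (SD, n = 3) and *Ccr1* at 43.2 ± 20.1 FPKM, and their ranges overlapped (59.8 to 75.02 and 24.3 to 64.3 FPKM). They were followed by *Ccr2* (5.76 ± 4.75), *Cxcr4* (4.39 ± 4.01), *Cxcr2* (2.82 ± 2.196), *Cxcr3* (1.26 ± 1.44) and *Ccr3* (0.262 ± 0.157), with overlap between each of these and the next. Within a library, *Ccrl2* exceeded *Ccr1* by 12.7 to 17.3 times in WT-Sham, 11.1 to 50.8 times in miKO-Sham and 12.0 to 20.2 times in WT-tFCI. In miKO-tFCI 1, 2 and 3 it did so by 2.46, 1.61 and 1.17 times, below every library of the other groups. *Ccrl2* made up 50.7% to 58.3% of the summed FPKM of the 7 members in miKO-tFCI and 87.9% to 96.2% in the other 9 libraries.

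**Figure D1:**
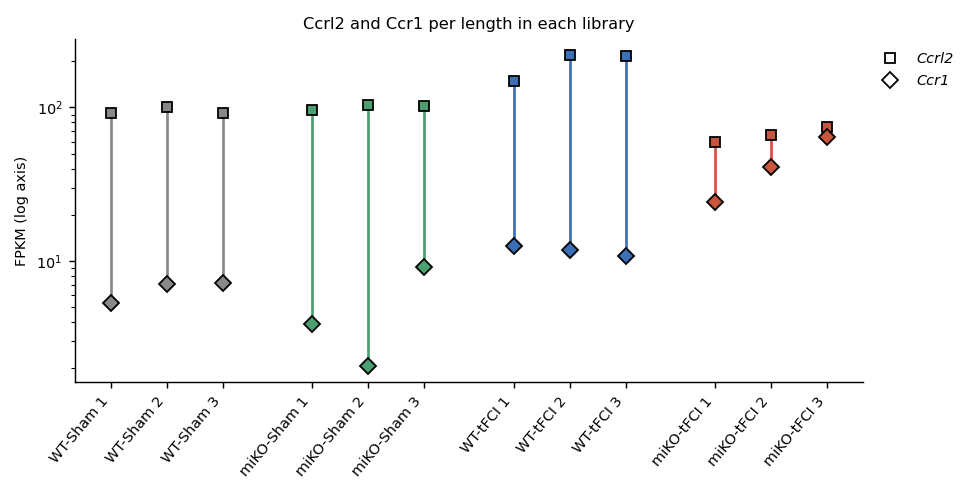
Level per length (FPKM, log axis) of *Ccrl2* (squares) and *Ccr1* (diamonds) in each of the 12 libraries, joined by a line. In miKO-tFCI the genes were 1.17 to 2.46 times apart, and in the other libraries at least 11.1 times.

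All 7 members passed the filter on low counts. *Cxcr2* reached 10 counts in the 3 miKO-tFCI libraries and in no other, and *Ccr3* in 3 WT-Sham libraries and 1 miKO-tFCI library. *Cxcr4* did so in all 6 tFCI libraries and 1 Sham library, and *Cxcr3* in 2 WT-Sham libraries and 1 each of miKO-Sham and miKO-tFCI. For these 4 members the groups in which they were high decided that they were tested, so their calls, and the counts of calls below, are a description. Genes were called where the adjusted p was under 0.05 and the log2 fold change beyond 0.58 in either direction (for the interaction, at the adjusted p alone). In miKO-tFCI vs. WT-tFCI, 4 of the 7 were called, where 8.79% of all 16451 genes tested were (4.08% higher and 4.71% lower). *Ccr1*, *Ccr2* and *Cxcr2* rose and *Ccrl2* fell, and the median log2 fold change of the members was 1.81, against 0.04 over all genes. In bulk RNA, a different number of cells of a type and a different amount of RNA per cell cannot be told apart. The count of 4 was 3 in batch 2 alone, with no batch term and without any 1 of the WT-tFCI libraries, and 2 without miKO-tFCI 1, when *Ccr1* and *Ccrl2* were left.

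In miKO-Sham vs. WT-Sham, 0 of the 7 were called by edgeR, against 15.4% of all genes (8.58% higher and 6.8% lower). At an unadjusted p under 0.05, 1 of them passed, *Ccr3*, and DESeq2 called 0. In WT-tFCI vs. WT-Sham, 3 of the 7 were called, against 32.6% of all genes. *Ccrl2* and *Cxcr4* rose and *Cxcr3* fell. In miKO-tFCI vs. miKO-Sham, 5 of the 7 were called (*Ccr1*, *Ccr2*, *Cxcr2* and *Cxcr4* higher, *Ccrl2* lower), against 35.8% of all genes. These comparisons share groups, so their calls are not independent of each other. The effect of genotype differed between surgeries for *Ccr1* and *Ccrl2*, 2 of the 7, where 3.82% of all genes were called (1.25% with a positive and 2.57% with a negative interaction). The interactions of *Ccr3*, *Cxcr2* and *Cxcr3* had adjusted p of 0.262, 0.171 and 0.131 in edgeR.

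**Figure D2:**
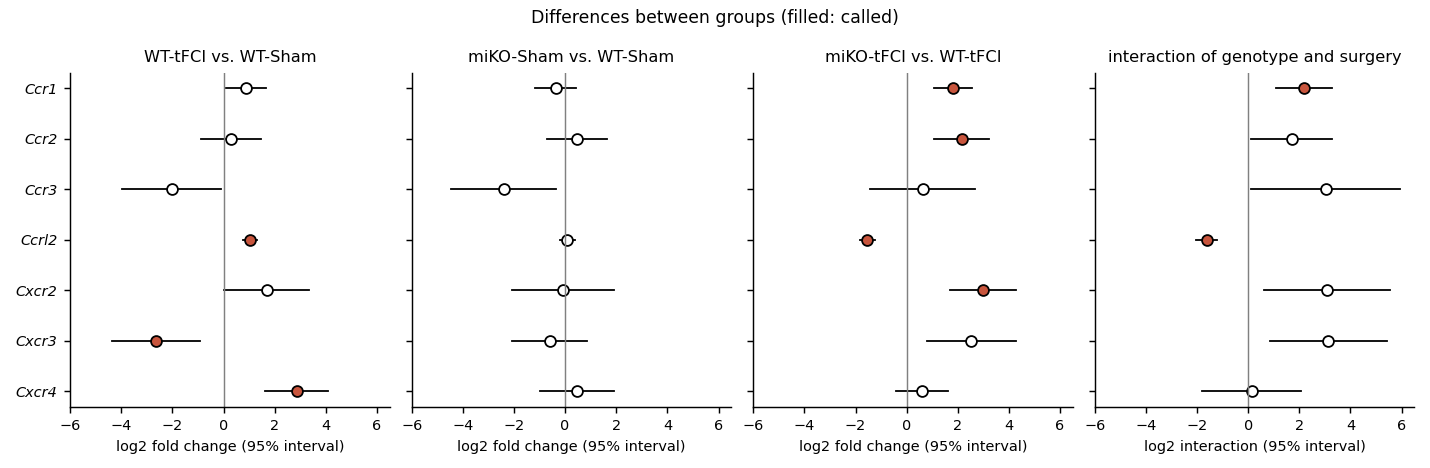
Log2 fold change of each member in 3 comparisons and its interaction of genotype and surgery, with 95% intervals (lines) from edgeR, filled where called. Filled points in miKO-tFCI vs. WT-tFCI are *Ccr1*, *Ccr2* and *Cxcr2* above 0 and *Ccrl2* below, and miKO-Sham vs. WT-Sham has none.

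*Ccrl2*, the chemerin-binding atypical receptor, had the most counts of the members in every library. In CPM, WT-Sham 1 to 3 had 238, 261 and 238, miKO-Sham 249, 272 and 264, WT-tFCI 388, 571 and 564, and miKO-tFCI 155, 171 and 195. The Sham groups overlapped, every WT-tFCI library lay above every Sham library, and every miKO-tFCI library lay below all 9 others. After tFCI it rose in WT by 1.03 on the log2 scale (SE 0.13, adjusted p = 3.70e-05, edgeR, Benjamini-Hochberg), and in miKO it fell by 0.60 (SE 0.13, adjusted p = 0.00255 from the same edgeR test). The genotypes differed after tFCI by -1.54 (SE 0.14, adjusted p = 1.12e-05, edgeR), and by -1.32 and -1.64 in batches 1 and 2 taken alone. In Sham the difference was 0.09 (95% interval -0.20 to 0.37, adjusted p = 0.707, edgeR). The interaction was -1.63 (SE 0.19, adjusted p = 3.57e-04, edgeR), and -1.38 and -1.74 within the batches. The fall in miKO lay close to the threshold on fold change and was not called in 6 of 21 alternatives (log2 fold changes -0.53 to -0.58).

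*Ccr1*, a receptor for CCL3, CCL5, CCL7 and related ligands, moved the other way. In CPM, WT-Sham had 15.0, 20.1 and 20.4, miKO-Sham 10.97, 5.83 and 26.0, WT-tFCI 35.2, 33.6 and 30.5, and miKO-tFCI 69.0, 116 and 182. The miKO-Sham libraries spread over both sides of WT-Sham, WT-tFCI lay above all Sham libraries, and miKO-tFCI lay above all others. In miKO-tFCI vs. WT-tFCI its log2 fold change was 1.81 (SE 0.36, adjusted p = 0.0054, edgeR, Benjamini-Hochberg), and it was called in all 21 alternatives. Taken alone, batch 1 gave 0.97 and batch 2 gave 2.18. In WT-tFCI vs. WT-Sham the log2 fold change of 0.87 missed the threshold (adjusted p = 0.0702, edgeR) and was called in 5 of 21 alternatives. In miKO-tFCI vs. miKO-Sham it rose by 3.06 (adjusted p = 2.40e-05, edgeR). The interaction was 2.18 (SE 0.52, adjusted p = 0.0302, edgeR), and it lost its call with no batch term (0.0852) and without any of WT-Sham 2, WT-Sham 3, miKO-Sham 1, WT-tFCI 2, WT-tFCI 3 or miKO-tFCI 3 (0.0554 to 0.0922).

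*Ccr2*, the monocyte receptor for CCL2 and CCL7, was highest in 1 library of each tFCI group. The CPM values were 8.05, 4.71 and 5.54 for WT-Sham, 4.58, 5.13 and 12.3 for miKO-Sham, 21.4, 3.35 and 3.17 for WT-tFCI, and 75.9, 18.5 and 22.4 for miKO-tFCI. WT-tFCI 1 reached into the range of miKO-tFCI, so the groups overlapped, while within each batch miKO-tFCI lay above WT-tFCI (by 1.81 in batch 1 and 2.56 in batch 2 on the log2 scale). With batch in the model the log2 fold change was 2.16 (SE 0.50, adjusted p = 0.0149, edgeR, Benjamini-Hochberg). It lost its call with no batch term (0.135) and without WT-tFCI 2 (0.0769), WT-tFCI 3 (0.0790) or miKO-tFCI 1 (0.0985), the adjusted p of edgeR in parentheses. After tFCI in WT its log2 fold change was 0.29 (95% interval -0.88 to 1.45), positive within batch 1 (1.39) and negative within batch 2 (-0.61). In miKO-tFCI vs. miKO-Sham *Ccr2* rose by 1.98 (adjusted p = 0.00712, edgeR). The interaction, 1.70, was not called (adjusted p = 0.246, edgeR).

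*Ccr3*, the eotaxin receptor known from eosinophils, had few counts. There were 17, 27 and 15 counts in WT-Sham, 1, 0 and 8 in miKO-Sham, 8, 6 and 0 in WT-tFCI, and 14, 5 and 4 in miKO-tFCI. WT-Sham libraries held the most, 15 counts or more, while the other 3 groups overlapped with each other. The log2 fold change was -2.41 in miKO-Sham vs. WT-Sham (95% interval -4.46 to -0.35, adjusted p = 0.101, edgeR) and -2.03 in WT-tFCI vs. WT-Sham (-3.99 to -0.08, adjusted p = 0.0918, edgeR). The Sham difference was called without miKO-Sham 3 (adjusted p = 0.0166, edgeR), where 1 and 0 counts remained in miKO-Sham. The summed level of the 9 eosinophil and mast cell markers moved the opposite way in Sham, with 16.3 to 27.5 CPM for WT-Sham and 179 to 189 CPM for miKO-Sham, most of it *Siglecf* (155.6 to 183.8 CPM in miKO-Sham), and their part in the result was not tested. In both Sham groups *Cma1*, *Il5ra*, *Mcpt4* and *Tpsb2* were at 0 in every library.

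*Cxcr2*, the neutrophil receptor for CXCL1, CXCL2 and CXCL3, was near the limit of detection outside miKO-tFCI. There were 4, 0 and 4 counts in WT-Sham, 2, 2 and 2 in miKO-Sham, 5, 9 and 9 in WT-tFCI, and 157, 29 and 48 in miKO-tFCI. Every miKO-tFCI library held at least 29 counts, and no other library more than 9. In miKO-tFCI vs. WT-tFCI the log2 fold change was 2.99 (SE 0.61, adjusted p = 0.0068, edgeR, Benjamini-Hochberg), and 4.29 and 1.91 in batches 1 and 2 taken alone. It was not called in batch 2 alone (0.0756), without WT-tFCI 1 (0.0523) or without miKO-tFCI 1 (0.0682). Against miKO-Sham, 234 counts stood against 6, a ratio of 33.7 after scaling (95% exact binomial interval 15.2 to 92.7, for counting error only). Of the 234 counts, 157 came from miKO-tFCI 1, and without it the ratio was 17.8 (7.80 to 49.9). After tFCI in WT, 23 counts stood against 8, a log2 fold change of 1.68 that was not called (adjusted p = 0.0986, edgeR).

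*Cxcr3*, the receptor for CXCL9, CXCL10 and CXCL11 that is known from T and NK cells, fell after tFCI in WT. It had 13, 9 and 31 counts in WT-Sham, 9, 9 and 11 in miKO-Sham, 3, 3 and 2 in WT-tFCI, and 49, 5 and 7 in miKO-tFCI. All WT-tFCI libraries lay below all others, and most counts of miKO-tFCI came from its replicate 1. The 53 counts of WT-Sham against 8 of WT-tFCI gave a ratio of 6.19 after scaling (95% exact binomial interval 2.92 to 15.1, counting error only), and the difference was called (adjusted p = 0.0180, edgeR, Benjamini-Hochberg). No WT-tFCI library had more than 3 counts, so a fitted fold depends on the prior count and only the ratios are given. Without WT-Sham 3 the ratio was 4.02. The call was lost without WT-Sham 3, WT-tFCI 1 or WT-tFCI 3 (0.0527 to 0.116). In miKO-tFCI vs. WT-tFCI, 61 counts stood against 8 (ratio 7.47, interval 3.56 to 18.1), and the difference missed the threshold (adjusted p = 0.0641, edgeR), although DESeq2 called it (adjusted p = 0.0358). Without miKO-tFCI 1, 12 counts stood against 8 (ratio 2.36, interval 0.886 to 6.65). The 12 T and NK cell markers summed to 2.51 to 17.2 CPM in miKO-tFCI against 2.19 to 11.5 CPM, highest in replicate 1 of each, and *Ncr1* was at 0 in every library. Their part in the result was not tested.

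*Cxcr4*, the receptor for CXCL12 that holds leukocytes in bone marrow, rose after tFCI in both genotypes. It had 10, 5 and 2 counts in WT-Sham, 3, 7 and 7 in miKO-Sham, 65, 32 and 22 in WT-tFCI, and 157, 22 and 39 in miKO-tFCI. Every tFCI library lay above every Sham library, and the tFCI groups overlapped. The log2 fold change was 2.87 in WT (SE 0.58, adjusted p = 0.00131, edgeR, Benjamini-Hochberg) and 2.998 in miKO (SE 0.58, adjusted p = 8.38e-04, edgeR), and both were called in all 20 alternatives that gave a value. RNA of other cells rose as well. The 6 endothelial markers were all called higher after tFCI in both genotypes, with a sum of 2.26 to 7.81 CPM in WT-Sham, 4.74 to 18.7 in miKO-Sham, 59.1 to 213 in WT-tFCI and 124 to 406 in miKO-tFCI, highest in replicate 1 of each tFCI group, as *Cxcr4* was. Of the 9 monocyte markers tested, 5 were called higher in WT and 6 in miKO. Over all genes tested, 20.9% and 21.9% were called higher in these 2 comparisons. The monocyte list summed to 37.9 to 102 CPM in WT-Sham and 66.5 to 197 CPM in miKO-Sham, and to 432 to 685 and 604 to 1011 CPM after tFCI. Most of the sum in WT-tFCI was *Fn1*, with means of 1.93 and 369 CPM in WT-Sham and WT-tFCI, and 5.86 and 206 CPM in miKO. The part of endothelial cells and monocytes in the rise of *Cxcr4* was not tested. Its log2 difference between genotypes after tFCI was 0.59 (95% interval -0.42 to 1.60), and the interaction was 0.13 (-1.81 to 2.07), intervals that leave room for differences in either direction.

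**Figure D3:**
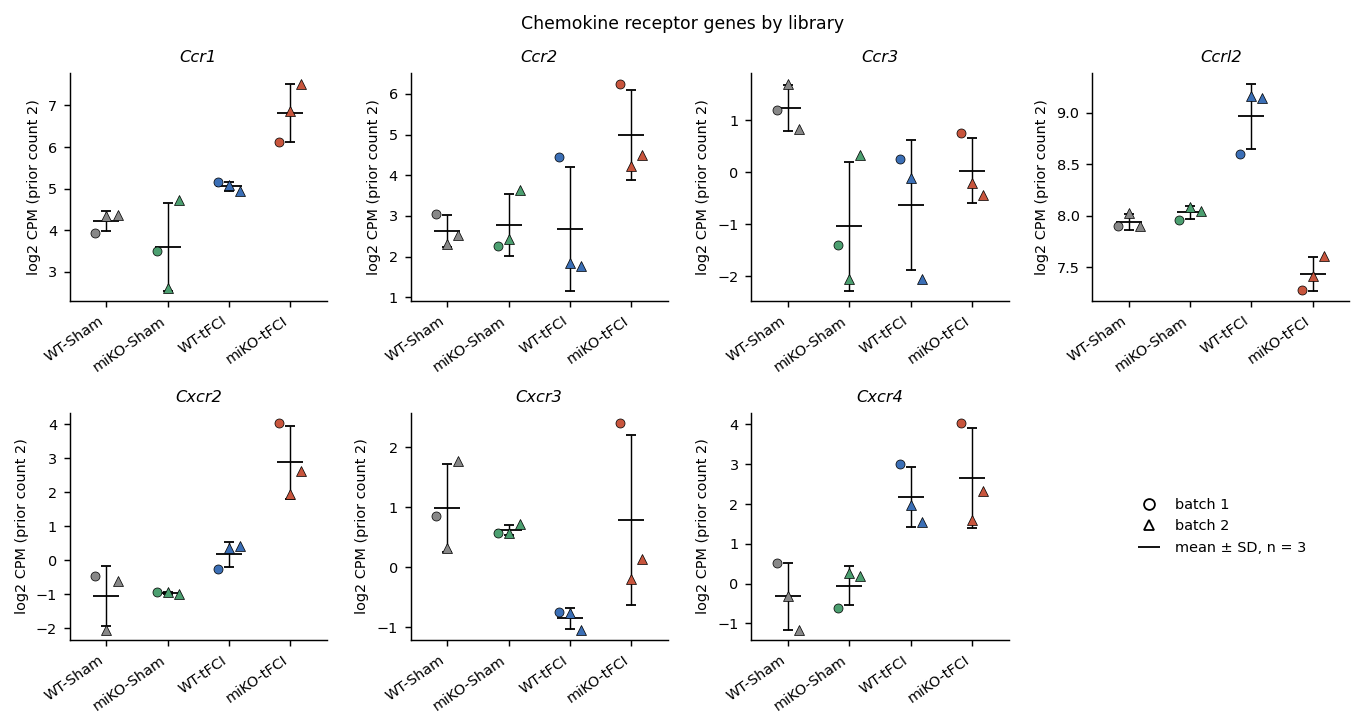
Log2 CPM (prior count 2) of each member in the 12 libraries by group, circles for batch 1 and triangles for batch 2, with the mean ± SD (n = 3). *Ccrl2* in miKO-tFCI lies below all other groups, *Ccr1* and *Cxcr2* lie above them, and the circles of *Ccr2*, *Cxcr2*, *Cxcr3* and *Cxcr4* stand apart in miKO-tFCI.

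Markers of other myeloid cells moved beside these receptors after tFCI. The background for the counts that follow was 4.08% of all genes tested called higher and 4.71% lower. Of the 10 monocyte markers, 9 were tested and 3 were called higher in miKO-tFCI vs. WT-tFCI (*F13a1*, *Chil3* and *Itga4*). The list summed to 432 to 685 CPM in WT-tFCI against 604 to 1011 CPM. Most of the sum in WT-tFCI was *Fn1*, whose mean went the other way (369 ± 74.8 against 206 ± 132 CPM) and which was not called. Of the 11 neutrophil markers, 10 were tested and 6 were called higher (*S100a8*, *S100a9*, *Retnlg*, *Mmp8*, *Ltf* and *Il1r2*), with a sum of 548 to 596 CPM against 1115 to 1316 CPM. Most of the sum in WT-tFCI was *Csf3r*, whose mean went the other way (352 ± 19.9 against 261 ± 26.8 CPM) and which was not called. *Ly6g*, also on the neutrophil list, had 0 to 4 counts in WT-tFCI and 2 to 6 in miKO-tFCI, too few to compare. Of the 7 dendritic cell markers, 6 were tested, 1 was called higher (*Ccr7*) and 1 lower (*Fscn1*), with a sum of 101 to 245 CPM against 73.7 to 412 CPM. Of the 6 markers of border-associated macrophages, *Cd163* and *Folr2* were called higher, with a sum of 132 to 232 CPM against 225 to 501 CPM. Of the 11 microglia markers, 5 were called lower and 0 higher.

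The receptors did not all follow the same markers across libraries. *Ccr2* and *Cxcr2* were highest in miKO-tFCI 1, where *Ly6c2* (68.0 CPM, against 11.2 and 11.4 CPM in miKO-tFCI 2 and 3) and the dendritic cell gene *Cd209a* (50.4 CPM against 2.39 and 1.36 CPM) were also highest. So were the sums of endothelial, astrocyte and oligodendrocyte markers (406, 505 and 144 CPM). Within its group *Ccr1* was lowest in miKO-tFCI 1 and highest in miKO-tFCI 3, as was *F13a1* (71.0, 170 and 323 CPM in miKO-tFCI 1 to 3). The monocyte list, to which *F13a1* belongs, went otherwise, with sums of 1011, 604 and 823 CPM in these libraries. Sums of the markers of border-associated macrophages (225, 473 and 501 CPM) and of microglia (10716, 17013 and 20250 CPM) were lowest in miKO-tFCI 1 and highest in miKO-tFCI 3. *S100a8* was similar in the 3 libraries, at 264, 333 and 298 CPM, but the neutrophil markers differed among themselves. *Retnlg* (4.82 to 28.1 CPM), *Il1r2* (29.0 to 143 CPM), *Mmp9* and *Mmp8* were highest in miKO-tFCI 1, as *Cxcr2* was. By contrast, *S100a9*, *Camp*, *Ngp*, *Ltf* (30.9 to 89.5 CPM) and *Csf3r* were lowest there. Without miKO-tFCI 1, the log2 fold change of *Ccr2* in miKO-tFCI vs. WT-tFCI was 1.75 and that of *Cxcr2* 2.34, and neither was called. In Sham, *S100a8* was highest in WT-Sham 1 (272 CPM), and *Cxcr2* had 0 to 4 counts in each Sham library, too few to compare with it. The part of other cells in the differences of *Ccr1*, *Ccr2* and *Cxcr2* was not tested.

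**Figure D4:**
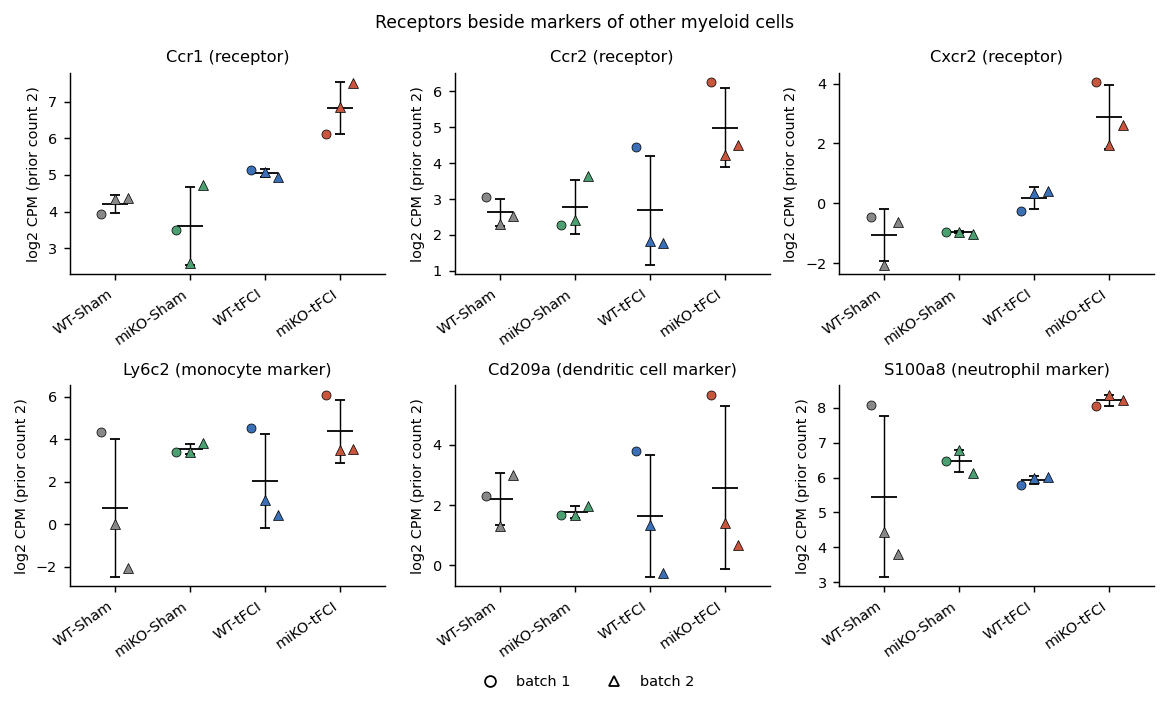
Log2 CPM (prior count 2) of *Ccr1*, *Ccr2* and *Cxcr2* above a monocyte, a dendritic cell and a neutrophil marker, by group, circles for batch 1 and triangles for batch 2, with the mean ± SD (n = 3). *Ly6c2* and *Cd209a* are highest in replicate 1 of each tFCI group, as *Ccr2* is, whereas *Ccr1* in miKO-tFCI is lowest there.

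The ligands of the 7 receptors were measured in the same cells, 24 genes of which 19 passed the filter. Between the genotypes after tFCI, 7 were called higher and 4 lower (background 8.79% over all genes, as above), with a median log2 fold change of 0.94. In miKO-Sham vs. WT-Sham, 8 were higher and 2 lower (median 0.98, background 15.4%), while none of the receptors was called. In WT-tFCI vs. WT-Sham, 15 were higher and 1 lower, *Ccl24* (background 32.6%). The count of 11 in miKO-tFCI vs. WT-tFCI was 7 with no batch term or without WT-tFCI 2, 10 without miKO-tFCI 1 and 14 in batch 2 alone.

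Among the ligands of *Ccr2*, 2 were higher in miKO with and without tFCI. *Ccl2* stood at 52.6 ± 9.72 CPM in WT-Sham, 198 ± 28.2 in miKO-Sham, 226 ± 30.9 in WT-tFCI and 509.8 ± 86.1 in miKO-tFCI (SD, n = 3 each), and *Ccl7* at 19.3 ± 0.902, 97.8 ± 8.42, 59.8 ± 8.89 and 396 ± 84.5 CPM. Both were called higher in miKO in both surgeries, by 1.91 and 2.34 in Sham and by 1.17 and 2.72 in tFCI on the log2 scale. *Ccl12*, the third called ligand of this receptor, was lower in miKO-tFCI (-0.68, a call lost in 5 of 21 alternatives) and not called in Sham (-0.49). In Sham, *Ccl2* and *Ccl7* differed between genotypes while *Ccr2* had a log2 fold change of 0.46 (95% interval -0.71 to 1.64).

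Of the 6 ligands of *Ccr1*, the abundant *Ccl3* and *Ccl4* changed direction. They were higher in miKO than in WT in Sham (0.98 and 0.88) and lower after tFCI (-1.24 and -1.43), with interactions of -2.22 and -2.31 that were called, while *Ccr1* itself had an interaction of 2.18. Their Sham calls were lost in 4 of 21 alternatives for *Ccl3* and 5 of 21 for *Ccl4* (adjusted p of edgeR up to 0.1098 and 0.149). *Ccl3* stood at 718 ± 224 CPM in WT-Sham, 1410 ± 418 in miKO-Sham, 1893 ± 286 in WT-tFCI and 800.1 ± 194 in miKO-tFCI (SD, n = 3 each). *Ccl6* was higher in miKO-tFCI (0.98), but by 0.06 within batch 1 and 1.39 within batch 2, and its call was lost in 5 of 21 alternatives. *Ccl5* was higher in miKO-Sham (3.59) and *Ccl9* lower (-2.79), and neither was called after tFCI. For *Ccr3*, *Ccl24* was higher in miKO in Sham (1.67) and tFCI (1.30), and *Ccl26* and *Ccl28* were too low to be tested.

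Of the ligands of *Cxcr2*, *Cxcl1* (1.77) and *Cxcl3* (2.67) were higher in miKO-tFCI, and *Cxcl2* (1.05) and *Cxcl3* in miKO-Sham. No WT-Sham library had more than 3 counts of *Cxcl3*, so no fold is given for Sham. After tFCI, *Cxcl1* had 25.9 ± 18.1 CPM with WT and 82.3 ± 29.7 CPM with miKO (SD, n = 3 each). Of the ligands of *Cxcr3*, *Cxcl10* was lower in miKO both in tFCI (-2.67) and in Sham (-0.72), and after tFCI WT had 345 ± 81.3 CPM and miKO 52.9 ± 4.85 CPM. The span of *Cxcl10* overlaps that of *Art3*, and the library kit kept no strand, so reads of any shared exon are uncertain. Whether exons are shared was not examined. The same holds for *Ccl2*, *Ccl6*, *Cx3cr1*, *Ackr1*, *Gna15*, *Elmo1*, *Arrb1* and *Rgs10*, whose spans overlap those of other counted genes. *Cxcl12*, the ligand of *Cxcr4*, was higher in miKO-tFCI (1.71), in groups that overlapped, with 41.3 and 97.0 CPM in replicate 1 of WT-tFCI and miKO-tFCI against 5.08 to 25.7 CPM in replicates 2 and 3. Its call was lost with DESeq2 (adjusted p = 0.0575), and in edgeR with no batch term (0.318) and without WT-tFCI 2, WT-tFCI 3 or miKO-tFCI 1 (0.0564 to 0.0608). Endothelial markers, of a cell type known to make CXCL12, were also highest in these libraries, with a sum of 213 and 406 CPM, and their part was not tested. *Rarres2*, the gene of chemerin, was not called in either comparison of genotypes.

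**Figure D5:**
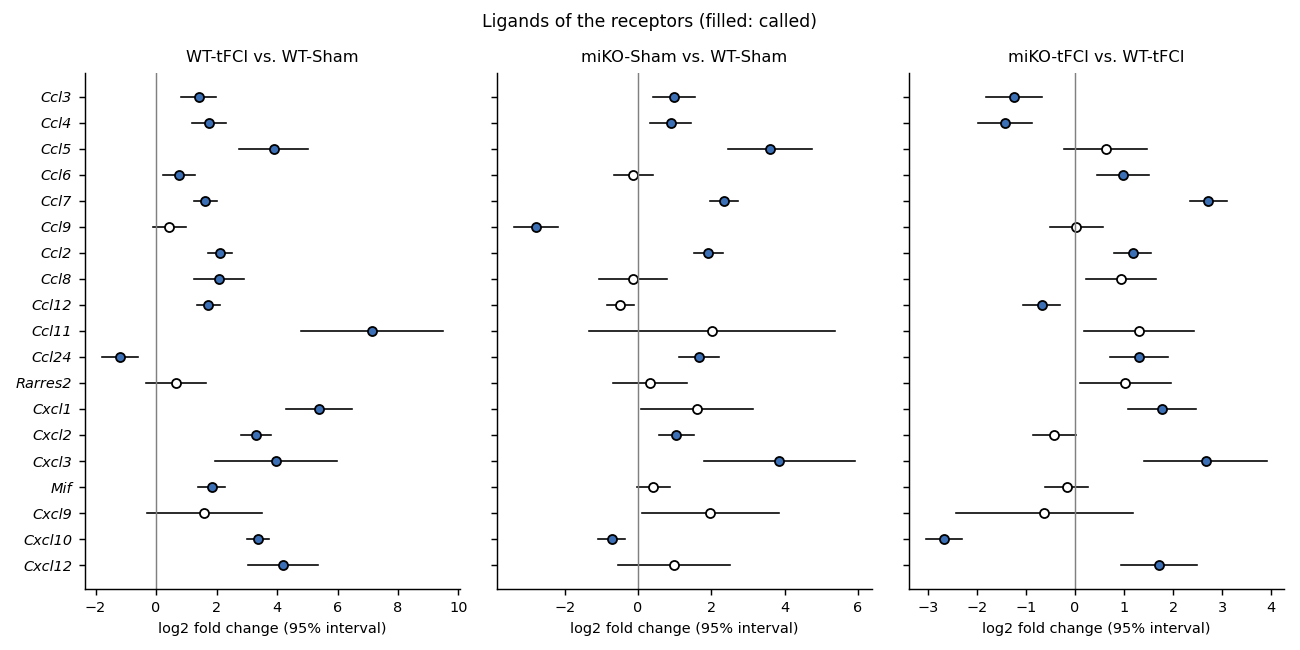
Log2 fold change of the 19 tested ligands with 95% intervals from edgeR in 3 comparisons, filled where called, on a separate axis range in each panel. In miKO-tFCI vs. WT-tFCI, *Ccl7* and *Cxcl3* lie furthest above 0 and *Cxcl10* furthest below.

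Among other chemokine receptors, 3 that were called in miKO-tFCI vs. WT-tFCI are described. *Ccr7*, which guides dendritic cells to lymph nodes, and *Ackr1*, an atypical receptor of venules and red cells, were higher (2.04 and 1.87), and *Cx3cr1*, the fractalkine receptor, was lower (-1.84). The groups of *Ccr7* overlapped, at 5.54 to 71.1 CPM in WT-tFCI and 36.2 to 239 CPM in miKO-tFCI. Its call was lost when batch was left out of the model (adjusted p = 0.290, edgeR). *Ackr1* lost its call in that model too (0.108), and again when replicate 1 of miKO-tFCI was dropped (0.0614). *Cx3cr1* was at 1196 ± 217 CPM in miKO-Sham, against 3862 ± 543 CPM with WT, and miKO mice had lost 1 of its alleles to CreER, so deletion of *Hdac3* and of this allele cannot be told apart.

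Downstream of the receptors, 6 of 25 relay genes were called in miKO-tFCI vs. WT-tFCI (background 8.79%, with 4.08% higher and 4.71% lower), with a median log2 fold change of -0.10 over the list. *Plcb2*, a phospholipase C of leukocytes, fell by 1.58 on the log2 scale, *Gna15*, a G protein subunit, by 0.82, *Pik3r5* and *Pik3r6*, regulatory subunits of phosphoinositide 3-kinase gamma, by 0.80 and 0.63, and *Elmo1*, a partner of the Rac activator DOCK2, by 0.80. *Fgr*, a Src-family kinase, rose by 0.69. Of 14 genes of desensitisation, 3 were called and all were lower, namely *Arrb1* (an arrestin, -1.08), *Grk3* (a receptor kinase, -0.99) and *Rgs10* (a brake on G proteins, -0.78), against the same background. The call was lost in 10 of 21 alternatives for *Grk3*, 6 for *Fgr*, 5 for *Pik3r6* and 1 for *Elmo1*. *Plcb2* had 57.6 ± 5.15 CPM after tFCI with WT and 19.3 ± 3.91 with miKO, and *Arrb1* 35.1 ± 7.31 and 16.5 ± 2.63 CPM (SD, n = 3 each). The other 19 relay genes and 11 genes of desensitisation, among them *Gnai2*, *Rac1*, *Dock2* and *Arrb2*, were not called after tFCI. The group means of the called genes differed in the same direction in Sham, *Plcb2* with 85.7 CPM in WT and 24.5 in miKO, and *Arrb1* with 49.1 and 20.2. In miKO-Sham vs. WT-Sham, 8 of the 25 relay genes were called (4 higher and 4 lower, background 15.4%). Of the 14 genes of desensitisation, 2 were called there, both lower.

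The genes whose batch-adjusted log2 CPM was most like that of a member over the 12 libraries were found by Pearson's r, a description over libraries that share batch and group. They were *Psmd1* (0.97), *Psmd12* (0.96) and *F13a1* (0.96) for *Ccr1*, and *Zfp51* (0.98), *Mndal* (0.97) and *Rhbdd2* (0.96) for *Ccr2*. *Bclaf3* (0.88) and *Fam49a* (0.87) were among the 3 most like *Ccr3*, and *Cd83* (0.96), *Gm47079* (0.95) and *Gm46224* (0.95) most like *Ccrl2*. For the CXC receptors they were *Tnip3* (0.98), *Ostf1* (0.97) and *Lmcd1* (0.96) for *Cxcr2*, *Atg13* (0.92), *Lrrc18* (0.90) and *Pcid2* (0.87) for *Cxcr3*, and *Gm44036* (0.98), *Gpx7* (0.98) and *Kdelr3* (0.98) for *Cxcr4*. Of the genes named here, *F13a1* alone was on a marker list.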

How the data were processed

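RNA of sorted microglia was sequenced in 12 libraries (SMART-Seq v4 kit, which keeps no strand). The authors aligned and counted the reads, and the deposited values are raw counts per gene for 55401 Ensembl identifiers. Per the labels, the submitters' processing notes name FastQC 0.11.9, Trim Galore, HISAT2 2.2.1, SAMtools and HTSeq 1.99.2, and the builds mm10 and GRCm38.p6, with no order or role. Of the counted reads, 30.7% to 38.5% lay on genes and 45.3% to 52.5% on no gene. At this depth, counting error is large for members with few counts.

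The 7 members and the gene lists were chosen with earlier results of these data known. Counts were fitted with edgeR 4.0.16 in R 4.3.3 (filterByExpr, TMM factors 0.864 to 1.11, quasi-likelihood, group and batch over 12 libraries, 16451 genes, Benjamini-Hochberg adjustment over all of them). CPM used TMM sizes, FPKM divided CPM by exon length, and log2 CPM used a prior count of 2. These steps were also tested on simulated counts. Replicates are pools that the study calls biological. Alternatives were other scalings and filters, DESeq2 1.42.0, no batch term, only the groups compared, batch 2 alone, a replicate block and each library left out. Ratios of pooled counts with exact binomial intervals, also with each library left out, were added after seeing the data, and intervals cover counting error only. Symbols came from GENCODE M21, which matched 55141 identifiers, and promoters from RefSeq, which matched all 7 members.

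All members were named in each comparison, other receptors where called in miKO-tFCI vs. WT-tFCI or the interaction, ligands where called between genotypes, relay and desensitisation genes where called in miKO-tFCI vs. WT-tFCI, and the 3 genes most like each member. Some results that this rule covers are not reported here. A few other genes (*Ccl26*, *Ccl28*, *Rarres2*, *Gnai2*, *Rac1*, *Dock2*, *Arrb2* and single markers) were named after their values were seen.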

Additional observations from a re-analysis of the deposited data

Results flagged for a closer look

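The effect of genotype differed between tFCI and Sham, by the interaction term of edgeR, for 2 members. For *Ccr1* the interaction was 2.18 on the log2 scale (adjusted p = 0.0302, edgeR, Benjamini-Hochberg), from a difference of -0.37 in Sham and 1.81 in tFCI, and it was 1.41 within batch 1 and 2.87 within batch 2. For *Ccrl2* it was -1.63 (adjusted p = 3.57e-04, edgeR), from 0.09 in Sham and -1.54 in tFCI, and it was called in all 20 alternatives, with adjusted p up to 0.00324.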

How the results depend on the processing

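Of 700 values of the 35 member results under the alternatives, 644 kept their direction and their side of the threshold, 23 lost a call, 16 gained one and 17 changed sign, all among values not called. For the 35 results of other named genes, 661 of 726 values kept both, and 65 lost the call.

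The signs turned as follows, with a library left out. For miKO-Sham vs. WT-Sham the ranges were -1.05 to 0.048 for *Ccr1*, -0.50 to 1.15 for *Ccr2*, -0.60 to 0.45 for *Cxcr2* and -1.07 to 0.28 for *Cxcr3*. For WT-tFCI vs. WT-Sham the range was -0.59 to 0.50 for *Ccr2*, for miKO-tFCI vs. miKO-Sham it was -0.88 (without miKO-tFCI 1) to 0.96 for *Cxcr3*, and for the interaction it was -0.75 to 0.55 for *Cxcr4*. In batch 2 alone, *Cxcr2* was 0.30, *Ccr2* -0.65, *Cxcr3* -0.85 and *Cxcr4* -1.06 in the same 4 comparisons. The cause was not tested.

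The number of members called was 1 in miKO-Sham vs. WT-Sham with no filter on low counts, 5 in WT-tFCI vs. WT-Sham with no filter and 1 with at least 10 counts in every library (where fewer members were tested), and 2 in miKO-tFCI vs. miKO-Sham with that filter. For the interaction it was 4 with no filter and 1 with no batch term. With a library left out it ranged from 2 to 5 in miKO-tFCI vs. WT-tFCI, 0 to 1 in miKO-Sham vs. WT-Sham, 2 to 4 in WT-tFCI vs. WT-Sham, 4 to 5 in miKO-tFCI vs. miKO-Sham and 1 to 3 in the interaction.

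Over all genes, 1446 were called in miKO-tFCI vs. WT-tFCI, 2193 with no filter, 701 with no batch term, 2535 with only the groups compared, and 616 to 1667 with a library left out (700 without WT-tFCI 2, 616 without WT-tFCI 3, 917 without miKO-tFCI 3). In miKO-tFCI vs. miKO-Sham 3744 were called with at least 10 counts in every library. The interaction gave 1272 with no filter, 1004 with DESeq2, 303 with no batch term and 281 to 883 with a library left out.

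With the replicate number as a block in place of batch, the comparisons gave 1429, 2490, 5325, 5871 and 612 calls, and among the members 4, 0, 4, 5 and 2, in the order of the genotypes compared after tFCI and in Sham, tFCI compared with Sham in WT and in miKO, and the interaction. Same-numbered libraries of different groups correlated by -0.06 to 0.67 before adjustment for batch and by -0.59 to 0.15 after it. Batch 1 holds only the replicates numbered 1, so the adjustment forces their deviations to balance across groups and lowers these correlations. Whether the numbers pair the samples beyond batch could therefore not be told.

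Depth limits what *Ccr3*, *Cxcr2* and *Cxcr3* can show, since each had fewer than 10 counts in most libraries. Where their differences were not called, the data show neither a difference nor its absence.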
